A study of Mus musculus with 8 samples.

Results

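Insulin-like growth factor 2 (Igf2), the receptors Igf1r and Igf2r and the IGF binding proteins Igfbp1 to Igfbp7 were examined by RNA-Seq in livers of MøFoxO1-KO mice and WT littermates. These 10 genes were taken by symbol from the 46517 genes of the count table, and each has 1 row in it. MøFoxO1-KO mice carry FoxO1 loxP/loxP alleles and Lyz2-Cre, whereas their WT littermates carry the same floxed alleles without Cre. The Lyz2 promoter drives Cre in myeloid cells, so hepatocytes and other liver cells keep FoxO1 by design. The mice were C57BL/6 males, 4 of each genotype, started on a NASH diet at 6 weeks of age and kept on it for 25 weeks. Livers were collected at 31 weeks of age after a fast of 16 hours.

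The liver secretes most of the IGF-1 that circulates in blood. IGF-1 and IGF-2 signal through the tyrosine kinase Igf1r, whereas Igf2r, the cation-independent mannose 6-phosphate receptor, takes up IGF-2 for breakdown in lysosomes. The IGF binding proteins hold IGFs in blood and tissue and limit their access to Igf1r. Igf2 is expressed from the paternal allele, is high in fetal rodent liver and falls after birth. Igfbp1 is a hepatocyte gene that insulin represses and FoxO1 activates.

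The genes lie on 6 chromosomes of GRCm38, and 2 pairs of binding protein genes are close neighbors. Igfbp1 and Igfbp3 are 3539 bases apart on chromosome 11, and Igfbp2 and Igfbp5 are 5457 bases apart on chromosome 1. RefSeq promoter windows on GRCm38.p6 were found for all 10 genes, 14 windows in all, with 4 for Igf2 and 2 for Igfbp2. The 250 bases before each start were searched on both strands for CAAAACA, the core of the insulin response element, for GTAAACA, a forkhead consensus, and for TTCNNNGAA, a STAT5 consensus. CAAAACA was in the window of 1 gene, Igfbp1, where it began 108 bases before the start. It was present in 5.56% of the 32851 windows of all genes. GTAAACA, in 3.17% of all windows, and TTCNNNGAA, in 7.02%, were in none of the windows of the 10 genes. Shown 5′ to 3′ are the Igfbp1 window, which holds the match, and 1 window each of Igfbp2 and Igf2, the genes with the largest differences between genotypes. Capitals mark the CAAAACA match. The windows are Igfbp1 at chr11:7197537-7197786 on the plus strand, Igfbp2 at chr1:72824230-72824479 on the plus strand and Igf2 at chr7:142657497-142657746 on the minus strand, before the Igf2 start nearest to the 3′ end of the gene.
Igfbp1: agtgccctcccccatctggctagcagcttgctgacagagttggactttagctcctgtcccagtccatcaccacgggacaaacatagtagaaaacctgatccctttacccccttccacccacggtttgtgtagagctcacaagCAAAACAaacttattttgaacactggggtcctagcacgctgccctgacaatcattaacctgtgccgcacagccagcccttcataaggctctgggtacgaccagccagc
Igfbp2: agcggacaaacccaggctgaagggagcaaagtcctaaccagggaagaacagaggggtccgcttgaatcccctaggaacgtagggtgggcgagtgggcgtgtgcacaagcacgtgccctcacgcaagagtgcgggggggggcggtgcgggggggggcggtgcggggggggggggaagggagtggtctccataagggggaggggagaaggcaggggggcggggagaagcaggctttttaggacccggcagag
Igf2: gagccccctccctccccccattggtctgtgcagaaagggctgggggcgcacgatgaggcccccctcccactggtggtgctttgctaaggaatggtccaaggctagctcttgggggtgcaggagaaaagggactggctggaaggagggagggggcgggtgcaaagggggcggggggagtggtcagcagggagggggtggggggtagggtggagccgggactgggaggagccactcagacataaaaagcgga

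Total counts per mouse ranged from 15253218 to 18025481, and mitochondrial genes held between 4.16 and 6.33% of them. The log2 fold change of Foxo1 itself was -0.17, with 0.18 as its standard error (SE) (edgeR, Benjamini-Hochberg adjusted P = 0.686), and RNA of whole liver mixes myeloid Foxo1 with that of all other cells. Normalized counts are counts scaled by library size and TMM factors to the mean effective library of the 8 mice. The 9 hepatocyte markers summed to between 1075708 and 1550254 normalized counts in WT livers and between 1259426 and 1877627 in MøFoxO1-KO livers. Their log2 fold change was above 0 for 7 and below 0 for 2. The 10 Kupffer cell and macrophage markers summed to between 2661 and 4088 in WT livers and between 3085 and 13460.5 in MøFoxO1-KO livers. Of these markers, 8 had a log2 fold change above 0, among them 5.18 for Marco, which overlapped between the groups. The 2 below 0 were Trem2 with -3.88 and Gpnmb with -4.13. Groups did not overlap for these 2 and for 1 of the higher markers, beside 9.71% of all tested genes. At an unadjusted P under 0.05 in edgeR, 5 were higher and 2 were lower, beside 16.7% of all tested genes in either direction. Fewer cells of a type and less RNA per cell cannot be told apart in whole liver.

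Levels of the genes were compared with each other in TPM, a transcript level per exon length that has the same total in every liver. Igfbp2 had the highest mean level over the 8 mice, 983 TPM, followed by Igfbp4 with 719 TPM and Igfbp7 with 229 TPM. Igfbp3 followed with 27.6 TPM, Igfbp1 with 23.3 TPM, Igf2r with 7.93 TPM, Igfbp6 with 4.61 TPM and Igfbp5 with 4.20 TPM. Igf2, with 0.302 TPM, and Igf1r, with 0.261 TPM, were the lowest. Among neighbors in this order, the ranges over the 8 mice were separate only between Igfbp4 and Igfbp7 and between Igfbp7 and Igfbp3. Igfbp2 exceeded Igfbp4 in 1 of 4 WT mice, WT24, and in 3 of 4 MøFoxO1-KO mice. Igf1, the main hepatic ligand, had a mean of 91.1 TPM, so the mean Igf1 level was 499 times that of Igf2 in WT livers and 226 times that of Igf2 in MøFoxO1-KO livers. The table counts only part of the Igf1r exons, 26.7% of the exon length in GENCODE M21, and Igf1r levels refer to that part.

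To determine whether macrophage FoxO1 deletion was accompanied by altered expression of these genes, the genotypes were compared by edgeR's quasi-likelihood test over the 13278 genes that passed a filter on low counts. All 10 genes passed it, Igf2 only through its counts in MøFoxO1-KO livers. The criteria for a call were an adjusted P (Benjamini-Hochberg) under 0.05 together with a log2 fold change beyond 1.5 in either direction. None of the 10 genes was called by edgeR, beside 0.188% of all tested genes, or 0.0527% for calls higher in MøFoxO1-KO livers, and none had an adjusted P under 0.05, beside 0.294%. At an unadjusted P under 0.05, 2 of the 10 genes, Igf2 and Igfbp2, were higher in MøFoxO1-KO livers and none was lower, where 16.7% of all tested genes passed in either direction and 8.65% were higher. DESeq2's Wald test called 1 of the 10 genes, Igf2, which was higher. It called 1.08% of all tested genes, 0.52% as higher, and 2 of the 10 had an unadjusted P under 0.05 in it, beside 17.5% of all tested genes. The groups did not overlap for 1 of the 10 genes, Igf2, with MøFoxO1-KO above WT, and for 9.71% of all tested genes, 5% with MøFoxO1-KO above and 4.71% with MøFoxO1-KO below WT. The log2 fold change was above 0 for 5 genes and below 0 for 5.

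**Figure D1:**
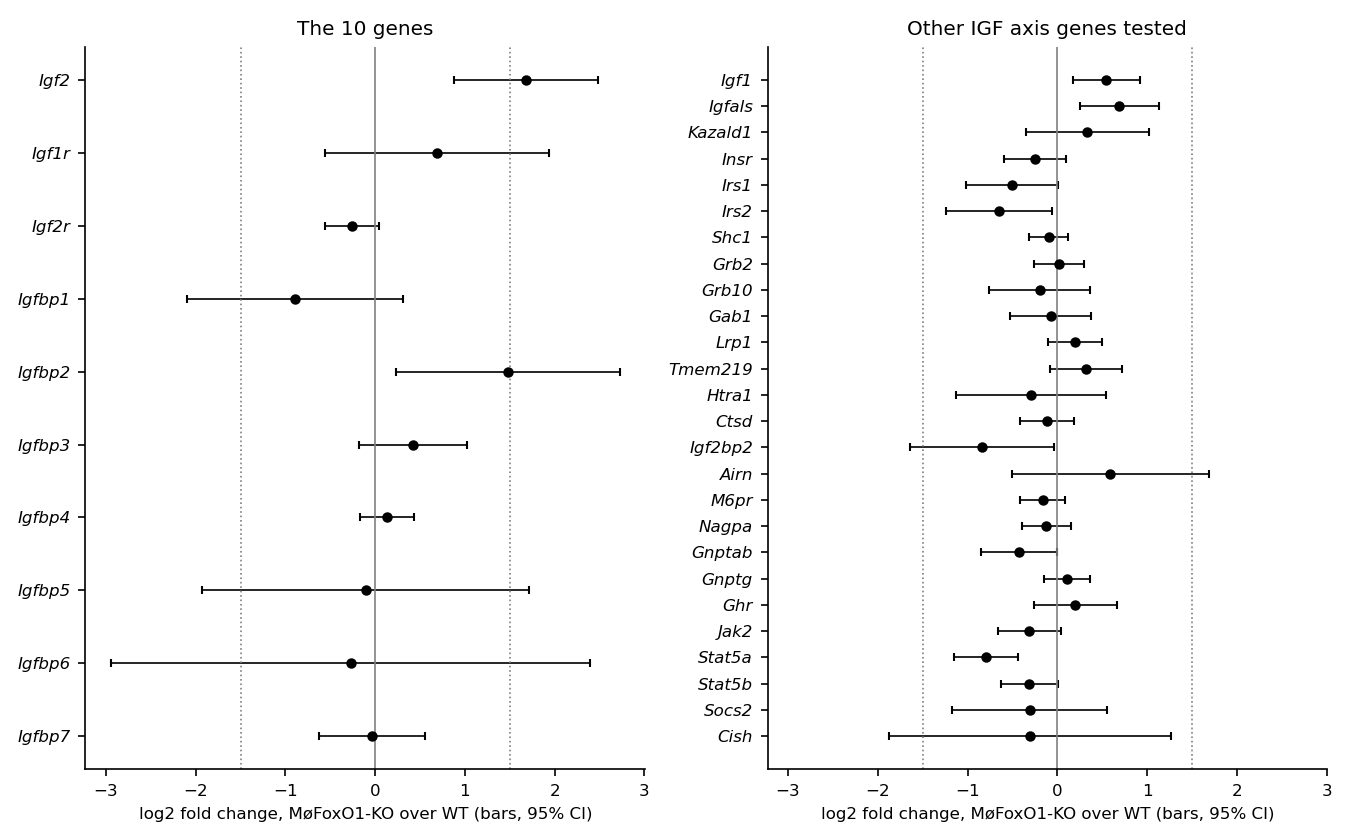
Log2 fold changes of MøFoxO1-KO over WT livers (x axis; points, edgeR estimates; bars, 95% confidence intervals; dotted lines, the limit of 1.5 in either direction) for the 10 genes on the left and the 26 tested partner genes of the IGF axis on the right. Igf2 at 1.68 and Igfbp2 at 1.48 have intervals that lie above 0, and the widest interval on the left is that of Igfbp6, from -2.94 to 2.40.

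Igf2 (chromosome 7, 142650766 to 142666816, minus strand) was low in every liver. WT22, WT23, WT24 and WT25 had 11, 9, 7 and 4 Igf2 counts, 31 in total. MøFoxO1-KO mice KO26, KO27, KO28 and KO29 had 23, 19, 28 and 22 counts, 92 in total. Every MøFoxO1-KO mouse had more Igf2 than every WT mouse, and the MøFoxO1-KO mice were close to each other. With so few counts per liver, this closeness does not show how far Igf2 varies between mice. Normalized Igf2 counts were 7.40 ± 2.77 (SD, n = 4) in WT versus 24 ± 2.04 (SD, n = 4) in MøFoxO1-KO mice, a 3.24-fold difference (exact two-sided permutation test, P = 0.0286, the smallest that 4 against 4 mice allow). By edgeR the log2 fold change of Igf2 was 1.68 with an SE of 0.36 and a 95% confidence interval from 0.88 to 2.48. It did not pass the threshold (edgeR, Benjamini-Hochberg adjusted P = 0.0968). DESeq2 gave 1.70 with an SE of 0.45 and a Benjamini-Hochberg adjusted P of 0.0092. Igf2 passed the filter only because its MøFoxO1-KO counts were high, so its P values and the separation of the groups are descriptive. Without the filter, the log2 fold change of Igf2 was 1.67 (edgeR, Benjamini-Hochberg adjusted P = 0.108). Over all alternatives the adjusted P of Igf2 (Benjamini-Hochberg; edgeR, DESeq2 or limma) ranged from 0.0092 to 0.295. In 8 edgeR fits that each left out 1 mouse the log2 fold change of Igf2 was between 1.48 and 1.88. Igf2 shares 98 exon bases with the antisense gene Igf2os, which had at most 1 count in a liver. H19, the imprinted noncoding neighbor of Igf2, had between 0 and 8.36 normalized counts and was too low to be tested.

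The receptors showed no difference past the test. Igf1r (chromosome 7) had 10, 2, 8 and 13 counts in WT22 to WT25 and 23, 5, 11 and 11 counts in KO26 to KO29. KO26 was the highest and WT23 the lowest, and the groups overlapped. Its log2 fold change was 0.69 with a 95% confidence interval from -0.56 to 1.94 (edgeR, Benjamini-Hochberg adjusted P = 0.580), so that no difference was detectable at this depth. Igf2r (chromosome 17, 12682406 to 12769664, minus strand) had 620.1, 882, 661 and 606 normalized counts in WT22 to WT25 and 617, 596, 542 and 553 in KO26 to KO29. WT23 stood above the other mice, KO26 lay between WT25 and WT22, and the other MøFoxO1-KO mice lay below all WT mice. Igf2r counts were 692 ± 129 (SD, n = 4) in WT versus 577 ± 35.6 (SD, n = 4) in MøFoxO1-KO mice (log2 fold change -0.26, 95% confidence interval from -0.56 to 0.04, edgeR with Benjamini-Hochberg adjusted P = 0.363, exact permutation test, P = 0.0571). Without WT23 the log2 fold change of Igf2r was -0.12, and with the sinusoidal endothelial markers as a covariate it was -0.13. That of Igf1r was between 0.28, without KO26, and 1.01, without WT25. The mean Igf2r level in TPM was 30.4 times that of Igf1r.

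**Figure D2:**
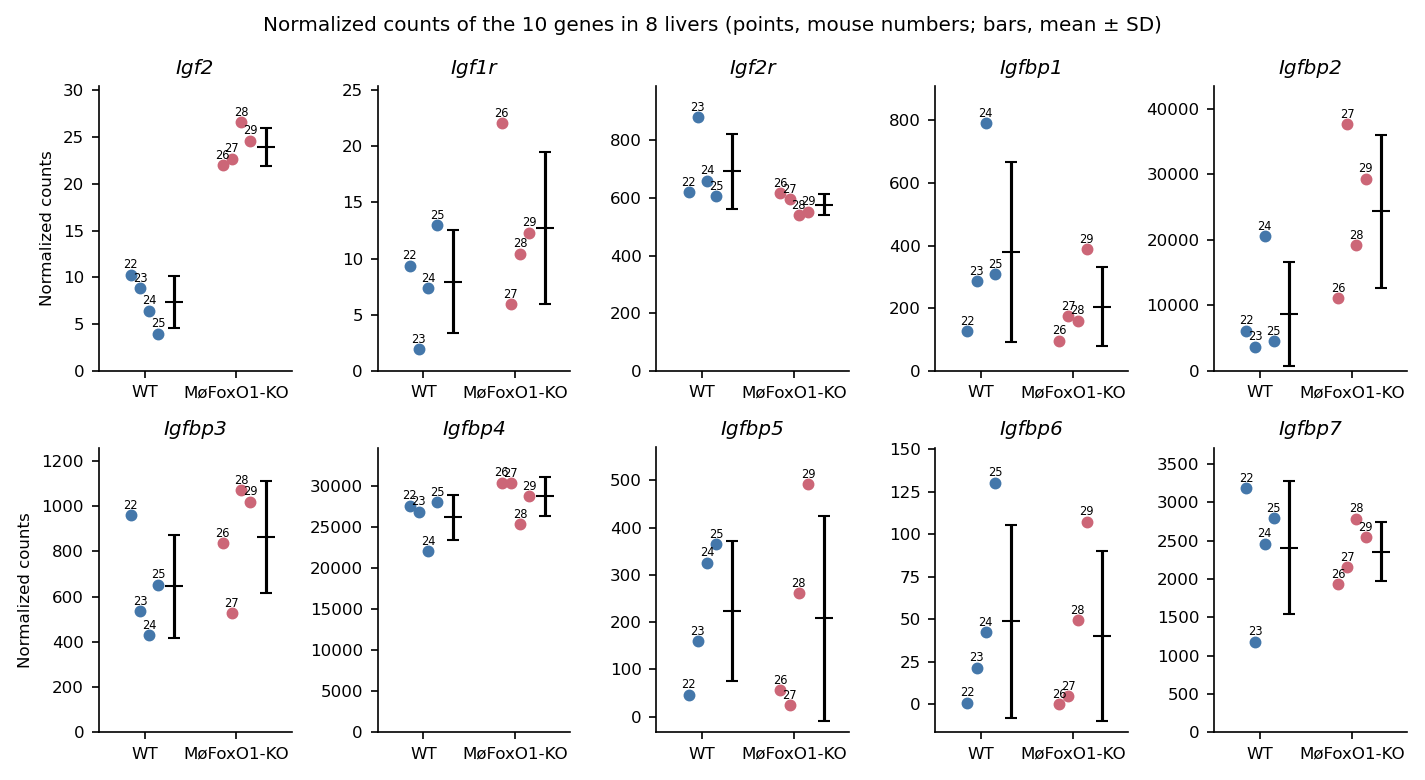
Normalized counts (y axis, a separate scale from 0 or just below it for each gene) of the 10 genes in the 4 WT and 4 MøFoxO1-KO livers; each point is a mouse with its number, and black bars are the mean ± SD of each group. The groups are separate for Igf2, WT24 stands with the MøFoxO1-KO mice for Igfbp2, and Igfbp5 and Igfbp6 vary among mice of the same genotype.

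Igfbp2 (chromosome 1, 72824503 to 72852474, plus strand), a leptin-responsive binding protein of hepatocytes, had the second largest log2 fold change of the 10 genes. WT22, WT23, WT24 and WT25 had 6139, 3694, 20526 and 4557 normalized Igfbp2 counts. KO26, KO27, KO28 and KO29 had 11100.1, 37663, 19165 and 29347. WT24 exceeded KO26 and KO28, and the other WT mice were below every MøFoxO1-KO mouse. The means were 8729 ± 7929.7 (SD, n = 4) and 24319 ± 11614 (SD, n = 4), 2.79-fold apart (exact permutation test, P = 0.0857). In edgeR, Igfbp2 had 1.48 as its log2 fold change, an SE of 0.56 and a 95% confidence interval from 0.23 to 2.72 (edgeR, Benjamini-Hochberg adjusted P = 0.234). Without WT24 it was 2.34 (edgeR, Benjamini-Hochberg adjusted P = 0.0642), and without any other single mouse it was between 1.19, without KO27 (adjusted P = 0.505), and 1.72, without KO26 (adjusted P = 0.203). KO27 and KO29, the highest for Igfbp2, were also highest for the summed Kupffer cell and macrophage markers, with 9739.7 and 13460.5 normalized counts. KO26, the lowest MøFoxO1-KO mouse for Igfbp2, had 4687 of these marker counts, KO28 had 3085, WT24 had 4088 and WT22 had 3997. As mean log2 levels, which give each of these markers the same weight, WT24 had 7.84, WT22 7.28, KO26 7.02, KO27 8.01, KO29 8.28 and KO28 6.71. Lymphocyte markers summed to 164 normalized counts in WT24, 162 in KO27 and 283 in KO29, to between 38.3 and 160.2 in the other WT mice, and to 118 and 120 in KO26 and KO28. Among the cell marker lists, Igfbp2 had its highest Pearson's r over the 8 mice with these macrophage and lymphocyte markers, 0.717 and 0.755. Neither passed an adjusted P of 0.05 (exact permutation test, Benjamini-Hochberg over 80 correlations, adjusted P = 0.314 and 0.295). Without the 2 mice farthest from the median marker level, r was 0.390 and 0.529. The part of these cells in the Igfbp2 difference itself was not tested.

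Igfbp1 (chromosome 11, 7197782 to 7202546, plus strand), whose promoter window carries the CAAAACA match shown above, had 127, 286, 791 and 309.6 normalized counts in WT22 to WT25. It had 96.8, 174, 160.4 and 388 in KO26 to KO29. WT24 was the highest of all mice, as it was of the WT mice for Igfbp2, and the groups overlapped. Igfbp1 counts were 379 ± 287 (SD, n = 4) in WT versus 205 ± 127 (SD, n = 4) in MøFoxO1-KO mice. The edgeR estimate was -0.89 on the log2 scale, with a 95% confidence interval from -2.09 to 0.31 (edgeR, Benjamini-Hochberg adjusted P = 0.442). With 1 mouse left out, the log2 fold change of Igfbp1 was between -0.24, without WT24, and -1.40, without KO29 (edgeR, Benjamini-Hochberg adjusted P = 0.828 and 0.360). Among 11 genes that fasting or insulin regulates in liver, the log2 fold change was above 0 for 3 and below 0 for 8, none past an adjusted P of 0.05 (edgeR, Benjamini-Hochberg). At an unadjusted P under 0.05 in edgeR, 3 of the 11 were lower, beside 16.7% of all tested genes in either direction, with log2 fold changes of -1.28 for Pdk4, the kinase that restrains pyruvate oxidation, -0.65 for Irs2, the insulin receptor substrate, and -0.53 for Ppargc1a, a coactivator of fasting genes. The gluconeogenic genes Pck1 and G6pc had log2 fold changes of -0.04 and -0.09.

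Igfbp3, the main carrier of IGFs in blood, had 960.2, 537, 431 and 653 normalized counts in WT22 to WT25 and 835, 527, 1071 and 1019.8 in KO26 to KO29. The groups overlapped, with KO27 among the low WT mice (log2 fold change 0.42, 95% confidence interval from -0.18 to 1.03; edgeR, Benjamini-Hochberg adjusted P = 0.473). Igfbp4, an inhibitory binding protein that the protease Pappa cleaves, was the steadiest of the 10 genes, with a 1.38-fold span between the lowest and the highest mouse. Normalized Igfbp4 counts were 26212 ± 2759 (SD, n = 4) in WT versus 28774 ± 2359 (SD, n = 4) in MøFoxO1-KO mice (log2 fold change 0.13, 95% confidence interval from -0.16 to 0.43; edgeR, Benjamini-Hochberg adjusted P = 0.659). The median log2 ratio of all tested genes was -0.32 in TPM and -0.01 in normalized counts, and Igfbp4 was the 1 gene of the 10 whose direction differed between these scales. In TPM, the Igfbp4 level was 762 ± 49.3 (SD, n = 4) in WT versus 677 ± 54.0 (SD, n = 4) in MøFoxO1-KO mice (exact permutation test, P = 0.0571).

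Igfbp5 and Igfbp6, binding proteins of connective tissue cells of which Igfbp6 prefers IGF-2, varied more among mice of the same genotype than between genotypes. Igfbp6 had 1, 22, 46 and 131 counts in WT22 to WT25 and 0, 4, 52 and 96 counts in KO26 to KO29. WT22, KO26 and KO27 had almost none and WT25 and KO29 had the most. Igfbp5 had 50, 162, 353 and 367 counts in WT22 to WT25 and 58, 20, 276 and 440 counts in KO26 to KO29. The same 3 mice were again the lowest, and the span from KO27 to KO29 was 20.6-fold in normalized counts. The log2 fold changes were -0.11 for Igfbp5, with a 95% confidence interval from -1.93 to 1.72, and -0.27 for Igfbp6, with an interval from -2.94 to 2.40 (edgeR, Benjamini-Hochberg adjusted P = 0.961 and 0.933).

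Markers of mesothelium, the sheet of cells that covers the liver, varied among the mice in the same manner. Msln, which encodes mesothelin, had 0, 35, 61 and 146 counts in WT22 to WT25 and 0, 1, 37 and 121 counts in KO26 to KO29. The mesothelial gene Upk3b had 0, 22, 64 and 178 counts in WT22 to WT25 and 0, 1, 57 and 104 counts in KO26 to KO29. WT22, KO26 and KO27 were at or near 0 for both. Of the 5 markers listed for mesothelium, Msln, Upk3b and Wt1 were at 0 in at least 1 liver, and Krt8, which hepatocytes also express, held most of the counts. The other 4 summed to between 41.2 and 496 normalized counts in WT livers and between 13.4 and 392 in MøFoxO1-KO livers. The mice fell into separate sets of 3 and 5 on these markers. Pearson's r over the 8 mice with the mean log2 level of all 5 markers was 0.960 for Igfbp5 and 0.955 for Igfbp6. Without KO26 and KO27 the coefficients were 0.975 and 0.990, with WT22 still far below the other mice in marker level. How far they rest on the split was not tested. With the mean log2 level of the 5 markers as a covariate, the SE of the genotype difference decreased from 0.82 to 0.27 for Igfbp5 and from 1.20 to 0.45 for Igfbp6. The log2 fold changes turned to 0.35 and 0.68, neither past the test (edgeR, Benjamini-Hochberg adjusted P = 0.562 and 0.510). This fit was chosen after the values were seen.

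**Figure D3:**
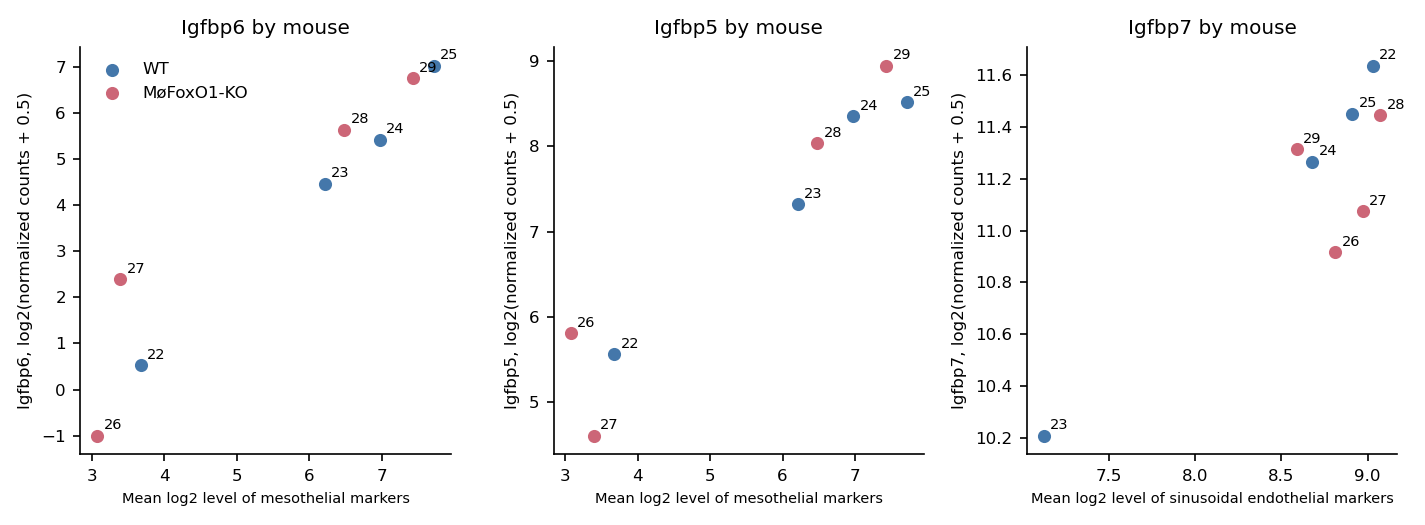
Igfbp6 and Igfbp5 against the mean log2 level of 5 mesothelial markers, and Igfbp7 against that of 9 sinusoidal endothelial markers (both axes in log2 of normalized counts + 0.5; points, mice with their numbers; blue WT, red MøFoxO1-KO). WT22, KO26 and KO27 lie at the lower left for Igfbp6 and Igfbp5, and WT23 lies alone at the lower left for Igfbp7.

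Igfbp7 (chromosome 5, 77349240 to 77408041, minus strand), a secreted protein of vascular endothelium with low affinity for IGFs, had 3183, 1184, 2462 and 2798 normalized counts in WT22 to WT25 and 1933, 2158, 2788 and 2543 in KO26 to KO29. WT23 was the lowest of the 8 mice and WT22 the highest, and the MøFoxO1-KO mice lay between them. The log2 fold change was -0.03 with a 95% confidence interval from -0.62 to 0.56 (edgeR, Benjamini-Hochberg adjusted P = 0.966). WT23 was also lowest for the 9 sinusoidal endothelial markers, which summed to 1950 normalized counts in it, to between 4359 and 5650.5 in the other WT mice and to between 4012 and 6267 in MøFoxO1-KO mice. It was also lowest for the 10 hepatic stellate cell markers, with 7105 normalized counts against between 10503 and 15934 in the other mice, and for the lymphocyte markers, with 38.3. The part of these cells in the Igfbp7 values was not tested. With only the sinusoidal endothelial markers as a covariate, added after the values were seen, the log2 fold change of Igfbp7 was -0.23 with an SE of 0.15 (edgeR, Benjamini-Hochberg adjusted P = 0.552). Igfbp7 shares 85 bases, 7.03% of its exons, with Polr2b on the opposite strand.

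The levels of the 7 binding proteins were also summed. The sum was 1714 ± 616 TPM (SD, n = 4) in WT versus 2267 ± 514 TPM (SD, n = 4) in MøFoxO1-KO mice (log2 ratio 0.40, exact permutation test, P = 0.229). Without WT24 the log2 ratio was 0.68 (exact permutation test, P = 0.0571), and without any other single mouse it was between 0.28 and 0.53. Per length and scaled by TMM instead (RPKM), the sums were 804 ± 246 and 1348 ± 393 (SD, n = 4 each, log2 ratio 0.75, exact permutation test, P = 0.0571). Igfbp2 provided 26.3, 21.1, 58.8 and 21% of the summed TPM in WT22 to WT25 and 40.5, 69.5, 54.7 and 62.9% in KO26 to KO29. WT24 had a larger Igfbp2 share than KO26 and KO28, and the other WT mice had smaller shares than every MøFoxO1-KO mouse. The share of Igfbp2 was 31.8 ± 18.1% (SD, n = 4) in WT versus 56.9 ± 12.5% (SD, n = 4) in MøFoxO1-KO mice (exact permutation test, P = 0.0857). Igfbp4 provided 48.7 ± 16.0% (SD, n = 4) in WT versus 31.5 ± 10.4% (SD, n = 4) in MøFoxO1-KO mice (exact permutation test, P = 0.114). Igfbp7 provided 15.4 ± 5.65% (SD, n = 4) and 9.33 ± 2.68% (SD, n = 4), respectively (exact permutation test, P = 0.171). The shares sum to 100%, so a larger Igfbp2 share lowers the others. Igfbp2, Igfbp4 and Igfbp7 together made up 95.9 ± 0.771% (SD, n = 4) of the sum in WT versus 97.7 ± 0.909% (SD, n = 4) in MøFoxO1-KO mice, without overlap (exact permutation test, P = 0.0286). These genes had the highest mean levels of the 7 binding proteins in the same livers, so this comparison is descriptive. Igfbp1 provided 1.78 ± 0.860% in WT versus 0.595 ± 0.284% in MøFoxO1-KO livers (SD, n = 4 each, exact permutation test, P = 0.0571). No adjustment was made over the shares.

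**Figure D4:**
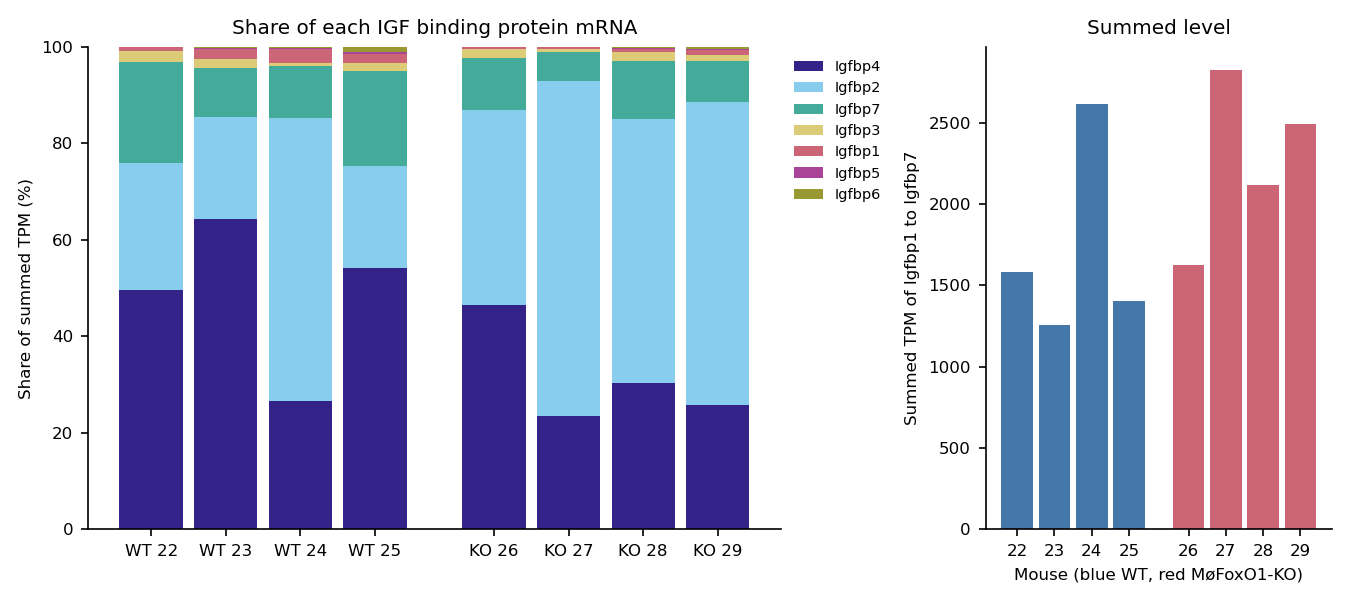
Left, share of each IGF binding protein in the summed TPM of Igfbp1 to Igfbp7 (y axis, percent) in each liver; right, the summed level (y axis, TPM; blue WT, red MøFoxO1-KO). The Igfbp2 share is between 21 and 26.3% in WT22, WT23 and WT25, 58.8% in WT24 and between 40.5 and 69.5% in the 4 MøFoxO1-KO mice.

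Without Igfbp2 the summed level of the other 6 binding proteins was 1086 ± 71.9 TPM (SD, n = 4) in WT versus 930 ± 48.5 TPM (SD, n = 4) in MøFoxO1-KO mice, without overlap (exact permutation test, P = 0.0286). This direction was not kept in RPKM scaled by TMM, in which the same sums were 516 ± 58.3 and 545 ± 20.1 (SD, n = 4 each, exact permutation test, P = 0.371).

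Partner genes of the IGF axis were read from the same edgeR fit. Of 38 genes listed, 26 were tested, 9 with a log2 fold change above 0 and 17 with one below 0, and none past an adjusted P of 0.05 (edgeR, Benjamini-Hochberg). Their median log2 fold change was -0.14, and that of all tested genes was -0.01. At an unadjusted P under 0.05, 2 were higher, Igf1 and Igfals, and 4 were lower, Irs2, Igf2bp2, Gnptab and Stat5a, together 6 of 26 beside 16.7% of all tested genes. Groups did not overlap for 3 of the 26, Igfals, Stat5a and Stat5b, beside 9.71%. Igf1 had 6516, 6930.3, 4831 and 7591 normalized counts in WT22 to WT25 and 10001, 10028, 7479 and 10249 in KO26 to KO29. KO28 lay just below WT25, and the other MøFoxO1-KO mice were above all WT mice (log2 fold change 0.55, SE 0.17; edgeR, Benjamini-Hochberg adjusted P = 0.176). Igfals encodes the acid-labile subunit, which joins IGF and Igfbp3 or Igfbp5 in the ternary complex of blood. It had 1604 ± 286 (SD, n = 4) and 2592 ± 693 (SD, n = 4) normalized counts in WT and MøFoxO1-KO livers, respectively, and every MøFoxO1-KO mouse was above every WT mouse (log2 fold change 0.69, SE 0.20; edgeR, Benjamini-Hochberg adjusted P = 0.152).

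Among genes of growth hormone signaling, Stat5a, a mediator of the induction of Igf1 by growth hormone, had 311 ± 53.9 (SD, n = 4) normalized counts in WT versus 179.5 ± 25.2 (SD, n = 4) in MøFoxO1-KO mice, and every MøFoxO1-KO mouse was below every WT mouse (log2 fold change -0.79, SE 0.16; edgeR, Benjamini-Hochberg adjusted P = 0.0851). Stat5b also did not overlap between the groups, with a log2 fold change of -0.31 (edgeR, Benjamini-Hochberg adjusted P = 0.315). Igf2bp2, an RNA binding protein of the Igf2 mRNA, had a log2 fold change of -0.84, and Gnptab, which makes the mannose 6-phosphate tag that Igf2r binds on lysosomal enzymes, had -0.43 (edgeR, Benjamini-Hochberg adjusted P = 0.282 and 0.291). Insr, the insulin receptor, had a log2 fold change of -0.24 (edgeR, Benjamini-Hochberg adjusted P = 0.464). The protease genes Pappa and Pappa2 and their inhibitors Stc1 and Stc2 were among the 12 listed genes that were too low to be tested.

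For each of the 10 genes, the most similar of 10383 other tested genes were sought by Pearson's r of log2 normalized counts over the 8 mice, as a description without a test, since the highest of many values is taken. Igfbp6 was closest to the mesothelial markers Upk3b (r = 0.981) and Msln (r = 0.976), and Igfbp5 to Slpi (r = 0.960) and Zbtb26 (r = 0.948). WT22, KO26 and KO27 were the lowest of the 8 mice for Igfbp6 and Igfbp5. How far these values of r rest on those mice was not tested. Igfbp2 was closest to Gstp-ps (r = 0.978) and Bbip1 (r = 0.970), Igfbp1 to Tbc1d10b (r = 0.944) and Mef2d (r = 0.944), and Igf2r to Ecpas (r = 0.990) and Hook1 (r = 0.988). Igfbp7 was closest to Rcn3 (r = 0.976) and Elk3 (r = 0.968), Igfbp4 to Tmem59 (r = 0.978) and Tmem14c (r = 0.975), and Igfbp3 to Ctsf (r = 0.940) and Adprh (r = 0.928). Igf2 was closest to Apol9a and C1ra, both at r = 0.952, which fell to 0.679 and 0.599 once each genotype was centered on its mean. For Igf1r, the closest were Plekhg5 (r = 0.960) and Aimp2 (r = 0.955). Igf1r had only between 2 and 23 counts per liver. WT23 had the highest Igf2r and the lowest Igfbp7 and Igf1r of the 8 mice. How far the values of r for these genes rest on WT23 was not tested.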

How the data were processed

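Polyadenylated RNA of whole liver from 8 mice was sequenced, and the authors deposited raw read counts per Ensembl gene, without normalization or pooling of replicates. The submitters' processing notes name STAR, featureCounts and mm10, with versions, strand setting and treatment of reads matching several genes not given in the sources used here. Symbols came from GENCODE M21, which has 46005 of the 46517 genes, 81.8% of them with the same exon length as in the table. Reads of Igf2 and Igf2os, or of Igfbp7 and Polr2b, in shared bases cannot be told apart without strand.

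Genes were filtered with filterByExpr (minimum count 10, minimum total 15), normalized by TMM and tested with edgeR 4.0.16 in R 4.3.3, with Benjamini-Hochberg adjustment over 13278 genes. The paper's limits of 0.05 and 1.5 were used, the latter as an absolute value. SEs were derived from the F statistic. Permutation tests were exact and two-sided (numpy 2.4.6), and log2 marker levels used a pseudocount of 0.5. Replicate libraries differed from each other by a chi-square of at least 27.4 per degree of freedom, so none was a duplicate.

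All 10 genes are named. Partner and fasting genes are named at an unadjusted P under 0.05 in edgeR, where groups did not overlap, or as Igf1, Igfals, Insr, H19, Pck1 and G6pc, and similar genes are the 2 of highest r with a mean of at least 50 normalized counts. Other names, and Pappa, Pappa2, Stc1 and Stc2 among genes not tested, were chosen after their values were seen. The genes and lists were chosen with earlier results of these data known. Alternatives were DESeq2 1.42.0, limma-voom (limma 3.58.1), other normalizations, filters and thresholds, and leaving out each mouse. In simulated data for this comparison with 13088 genes, edgeR recovered 87 of 100 genes changed by 2 and 98 of 100 changed by 3 on the log2 scale, with 5 false calls. Each gene was drawn independently, so shifts that many genes share in a single mouse were not simulated. Smaller changes, such as those estimated for the 10 genes, were not simulated either, so their recovery is not known.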

Additional observations from a re-analysis of the deposited data

Results flagged for a closer look

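Among 36 groups of 4 mice examined, 2 held a mouse far from the others by Dixon's 95% criterion, which chance alone gives in about 1 of 20 groups. Both were WT24. Its 20526 normalized Igfbp2 counts lay apart from the other WT mice, with a gap to the nearest of them of 0.855 of the range of the group. Its Igfbp2 share of 58.8% of the summed TPM of the binding proteins lay apart in the same way (0.859), and both values rest on the same counts. WT24 also had the highest Igfbp1 of the 8 mice, with 791 normalized counts, a value that did not pass the criterion.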

How the results depend on the processing

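Of 299 alternative values, 266 kept their direction and their side of the threshold, or stayed within the spread or 1.5 times the count. The number of genes called among all tested genes was 25. It was 120 without a filter, 144 by DESeq2, 13 by limma-voom, 15 with the mesothelial covariate, 39 without a fold limit, and between 3 (without WT25) and 82 (without KO28) with 1 mouse left out. Of the 10 genes, DESeq2 called 1, Igf2 (log2 fold change 1.70), and none was called in any fit that left out a mouse. The directions of Igfbp5, Igfbp6 and Igfbp7 were not stable. With 1 mouse left out, log2 fold changes ranged from -0.97 to 0.28 for Igfbp5, from -1.40 to 0.89 for Igfbp6 and from -0.26 to 0.13 for Igfbp7. The mesothelial covariate gave 0.35 for Igfbp5 and 0.68 for Igfbp6, and limma-voom gave 0.0480 for Igfbp7. The partner median ranged from -0.18 to -0.0776 with 1 mouse left out, the latter without KO28. Without Igfbp2 the log2 ratio of the summed TPM was -0.22, and the differences in share were 0.685 percentage points for Igfbp3 and 2.38 for Igfbp4. With 1 mouse left out, the difference in share ranged from -1.56 (without WT22) to -0.862 points for Igfbp1 and from -0.311 to 0.0198 (without WT25) for Igfbp6. The causes were not tested. With at least 10 counts required in every mouse, Igf2, Igf1r and Igfbp6 gave no value. Igf2 and Igf1r had the fewest counts of the 10 genes, and the SE was largest for Igfbp6 and Igfbp5, with 1.20 and 0.82. No paired analysis was possible because the labels of WT mice 22 to 25 and MøFoxO1-KO mice 26 to 29 give no litter or pair.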

Other observations

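Over the 8 mice, the pairs among the 10 genes whose log2 normalized counts had an absolute Pearson's r above 0.7 were 4, a limit chosen after the values were seen and given without a test. Igfbp5 and Igfbp6 had an r of 0.858 and Igfbp1 and Igfbp6 one of 0.742, and WT22, KO26 and KO27 were low for Igfbp5 and Igfbp6. Igf2r had an r of -0.817 with Igfbp7, or -0.986 with each genotype centered on its mean, and of -0.773 with Igf1r. WT23 had the highest Igf2r and the lowest Igfbp7 and Igf1r of the 8 mice.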
